A study of Mus musculus with 13 samples.

Results

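The genes described here are 33 genes of glycolysis and of the response to low oxygen, chosen by name from a table of 53653 genes. They cover glucose and lactate transporters, the enzymes from hexokinase to lactate dehydrogenase, regulators of the pathway, the hypoxia-inducible factor gene Hif1a with a pair of its hydroxylases, and genes that this factor is known to switch on. All 33 were in the table, and 32 of them were among the 22265 genes that passed a filter on low counts. The gene left out of tests was Car9, which drew 11, 23 and 25 reads in all libraries of the 3 groups named below.

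Glycolysis splits glucose into pyruvate, yields ATP without oxygen and feeds side branches that build nucleotides and amino acids. Lactate dehydrogenase then converts pyruvate into lactate, which monocarboxylate transporters carry out of the cell. In low oxygen the prolyl hydroxylases encoded by the Egln genes stop marking the HIF-1α protein for destruction, and the factor raises most glycolytic genes, glucose transporters and vessel-forming signals such as VEGF-A. Granule cell precursors of the cerebellum, the cells from which Sonic Hedgehog medulloblastoma arises, are known in the mouse to raise Hk2 and aerobic glycolysis when the Hedgehog pathway is active.

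Gene counts came from 13 RNA-seq libraries of GFP-positive tumour cells sorted from mice with medulloblastoma driven by SmoM2, a constantly active form of the Hedgehog receptor component Smoothened. All 3 groups carried SmoM2 overexpression. The KO metastasis group (4 libraries, replicates 3, 4, 6 and 7) came from spinal cord metastases with Kmt2d knocked out (SmoM2-Kmt2dCf/Cf), a gene for a histone H3 lysine 4 methyltransferase of enhancers. The KO primary group (4 libraries, replicates 3, 4, 6 and 7) came from cerebellar tumours of that genotype, and the control primary group (5 libraries, replicates 3 to 7) from cerebellar tumours with SmoM2 alone. KO animals were 5 to 8 weeks old and control animals 6 to 16 weeks old. Pellets held 0.1 to 3 M cells for metastases and 1 to 5 M cells for primary tumours. The labels name no driver for the Kmt2d deletion and tie no library to a mouse, so p-values measure the spread between these libraries.

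Libraries held 23.5 to 41.4 M counts, and the 33 genes took 0.452% to 0.575% of them. Markers of granule cell precursors were all detected, and their 8 genes summed to 2930 to 4098 CPM in KO metastases, 2977 to 3456 CPM in KO primary tumours and 2155 to 2620 CPM in control primary tumours. CPM are counts scaled to a common library total, here after TMM scaling unless said otherwise. Markers of differentiating granule neurons (8 genes, all detected) summed to 1035 to 1759 CPM in KO metastases, 929 to 1056 CPM in KO primary tumours and 2082 to 3418 CPM in control primary tumours. Mature oligodendrocyte markers (6 genes) summed to 152 to 1692 CPM in KO metastases, 51.3 to 79.0 CPM in KO primary tumours, where Opalin was at 0, and 121 to 306 CPM in control primary tumours. Genes known to respond to cell dissociation (8 genes) summed to 2093 to 2883, 747 to 2181 and 451 to 1201 CPM in the KO metastasis, KO primary and control primary libraries. Kmt2d was at 105 to 131, 91.7 to 168 and 78.1 to 175 CPM in the KO metastasis, KO primary and control primary libraries. These are counts of the whole gene that do not read the deletion. Some libraries stood apart. Olfactory and vomeronasal receptor genes drew over 100 CPM of the unscaled totals in KO metastases 6 and 7, KO primary 7 and control primary 3, Xist was above 100 CPM in control primary 5, 6 and 7 alone, and KO metastasis 3 had 2.06% of its counts on mitochondrially encoded genes.

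Promoter windows of RefSeq (build GRCm38.p6) were at hand for 32 of the 33 genes, 45 windows in all. HIF binds a short core, ACGTG or GCGTG, which reads CACGT or CACGC on the opposite strand. At least 1 window held ACGTG or GCGTG on either strand for 29 of 32 genes (90.6%), against 46.7% of all 27025 genes with a window. The share with ACGTG was 68.8% (22 of 32), against 21.8% of all genes. Windows of these genes are rich in CpG, with a median of 20 CpG against 7 in all windows. Among genes with a window at or above that median of 20, the share with ACGTG was 76.2% (16 of 21), against 30.1% of all genes with such a window, and the share with either core was 95.2% against 74.9%. ACGTG overlaps the E-box CACGTG, which 6 of the 32 genes held, as did 8.09% of all genes. The windows of Eno2, Gpi1 and Tpi1 held neither core. The list was chosen to hold genes that HIF is known to switch on, so a higher share is no independent result. These genes also have more windows each, 45 for 32 genes against 32851 for 27025. A match is a stretch of letters and shows no binding. The windows below show where such cores lie in Aldoa, the gene called below, in 3 genes called only under other settings (Eno1, Slc2a1 and Hk2) and in Ldha, which makes lactate. They were chosen after values were seen, and windows of other genes with large differences, such as Eno2 and Pfkm, are not printed. They are given on the gene's strand with the cores of either strand in capitals, and coordinates are counted from 1.
Slc2a1 promoter, chr4:119108495-119108794, plus strand: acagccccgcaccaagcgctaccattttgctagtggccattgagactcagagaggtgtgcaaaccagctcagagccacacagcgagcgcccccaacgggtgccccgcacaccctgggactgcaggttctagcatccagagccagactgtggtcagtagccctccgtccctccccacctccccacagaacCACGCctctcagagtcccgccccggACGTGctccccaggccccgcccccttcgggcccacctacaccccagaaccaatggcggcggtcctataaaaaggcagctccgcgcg
Hk2 promoter, chr6:82774405-82774704, minus strand: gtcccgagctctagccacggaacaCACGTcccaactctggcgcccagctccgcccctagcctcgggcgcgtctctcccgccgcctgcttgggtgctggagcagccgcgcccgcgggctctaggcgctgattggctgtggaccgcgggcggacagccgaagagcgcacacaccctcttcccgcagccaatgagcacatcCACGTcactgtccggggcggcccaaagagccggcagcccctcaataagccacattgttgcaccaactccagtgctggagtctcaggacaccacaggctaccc
Aldoa promoter, chr7:126799129-126799428, minus strand: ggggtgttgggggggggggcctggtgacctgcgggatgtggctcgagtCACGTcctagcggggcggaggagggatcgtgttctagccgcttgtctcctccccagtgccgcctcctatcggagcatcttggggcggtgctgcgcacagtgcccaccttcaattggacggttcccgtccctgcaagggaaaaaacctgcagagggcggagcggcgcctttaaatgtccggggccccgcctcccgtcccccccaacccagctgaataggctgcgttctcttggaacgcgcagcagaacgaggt
Eno1 promoter, chr4:150236947-150237246, plus strand: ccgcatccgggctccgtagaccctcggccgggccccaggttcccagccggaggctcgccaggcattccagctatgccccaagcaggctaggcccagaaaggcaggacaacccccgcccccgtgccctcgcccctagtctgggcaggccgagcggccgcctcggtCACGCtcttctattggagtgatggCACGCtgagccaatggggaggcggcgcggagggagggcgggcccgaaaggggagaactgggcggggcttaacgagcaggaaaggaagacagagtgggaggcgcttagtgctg
Ldha promoter, chr7:46845554-46845853, plus strand: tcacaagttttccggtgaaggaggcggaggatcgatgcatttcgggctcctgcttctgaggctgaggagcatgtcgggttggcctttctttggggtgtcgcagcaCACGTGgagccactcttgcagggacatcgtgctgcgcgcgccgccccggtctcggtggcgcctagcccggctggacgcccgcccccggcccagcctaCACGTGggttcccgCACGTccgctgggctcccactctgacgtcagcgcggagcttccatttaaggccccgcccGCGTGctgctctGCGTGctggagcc
The window of Aldoa held 1 core on the opposite strand, that of Hk2 held 2 on the opposite strand, that of Slc2a1 held 1 on each strand, and that of Eno1 held 2 GCGTG cores on the opposite strand. That of Ldha held ACGTG 5 times and GCGTG 2 times over both strands, where each of its 2 CACGTG palindromes counts once per strand. Aldoa and Eno1 have 3 windows each and Ldha has 2 in RefSeq, of which 1 is shown.

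Levels per kilobase of exon ranked the enzymes. Gapdh stood highest with means of 286, 242 and 258 CPM per kb in KO metastases, KO primary and control primary tumours. Eno1 followed with 209, 213 and 130.5 CPM per kb in the same order of groups, Pkm with 182, 182 and 159.6, and Ldha with 164, 172 and 129.7. In control primary tumours Eno1, Pkm and Ldha did not differ beyond their spread on this scale. Before division by exon length they averaged 702 ± 102, 798 ± 121 and 429 ± 72.7 CPM there, so the ranking depends on the exon lengths used. Of the 50-base stretches, 82.5% of Gapdh and 72.2% of Eno1 also occur in other genes, so their levels depend on how reads were placed. Within isoenzyme families the tumour cells carried far more Hk2 than Hk1 (35.8, 47.9 and 25.2 against 2.28, 2.58 and 3.36 CPM per kb) and far more Eno1 than the neuronal enolase Eno2 (0.214, 0.317 and 1.46 CPM per kb). The muscle-type phosphofructokinase Pfkm and the liver-type Pfkl were close, at 8.25, 9.43 and 13.6 CPM per kb for Pfkm and 7.54, 8.56 and 7.19 CPM per kb for Pfkl. Of the hypoxia response genes, Car9 and Adm were near the floor. The pH regulator gene Car9 averaged 0.0384, 0.0677 and 0.0795 CPM per kb, and Adm, which encodes the vessel hormone adrenomedullin, 0.238, 0.269 and 0.256. Vegfa, Bnip3, Ddit4 and P4ha1 were higher, with group means from 4.06 CPM per kb (Bnip3 in KO metastases) to 34.1 CPM per kb (Ddit4 in control primary tumours).

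**Figure D1:**
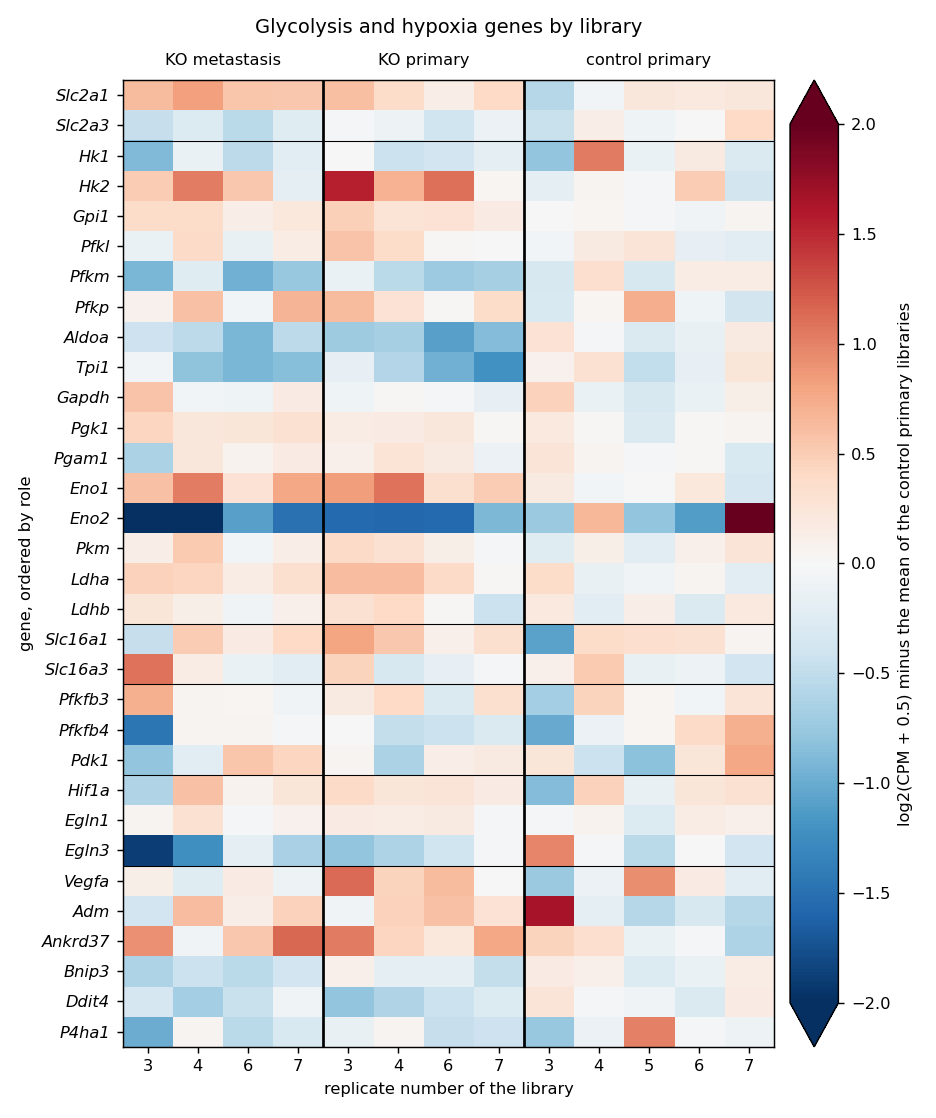
Level of each of the 32 tested genes in each of the 13 libraries, as log2(CPM + 0.5) minus the mean of the 5 control primary libraries of that gene, with genes in order of their role. Blue cells run through most of Aldoa, Tpi1, Pfkm and Eno2 and red cells through Eno1 and Gpi1 in both KO groups, while control primary 3 and KO metastasis 3 stand out in single genes such as Adm (1.83 CPM in control primary 3) and Pfkfb4 (4.45 CPM in KO metastasis 3).

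The first comparison asked how primary tumours with and without Kmt2d differ. By edgeR, aldolase A was the gene of the 33 that passed the test, and it was lower in KO primary tumours. DESeq2 called 6 genes in this comparison (Aldoa, Ddit4, Eno1, Eno2, Gpi1 and Hk2) and limma voom 9 (Adm, Aldoa, Ddit4, Eno1, Gpi1, Hk2, Ldha, Pfkm and Tpi1). Of all 22265 genes DESeq2 called 1648 and limma voom 3267. Aldoa, the enzyme that cleaves fructose bisphosphate, measured 154, 159, 119 and 138 CPM in KO primary 3, 4, 6 and 7, against 308, 246, 206, 227 and 287 CPM in control primary 3 to 7. Every KO primary library lay below every control library. The means were 142 ± 18.3 CPM in KO primary and 255 ± 42.3 CPM in control primary tumours (SD, n = 4 and 5). This is a log2 fold change of -0.84 (SE 0.153, 95% interval -1.17 to -0.51, edgeR adjusted p = 0.00848). Aldoa passed the test under 22 of 23 other settings. It did not pass without the 3 control libraries with Xist (log2 fold change -0.89, edgeR adjusted p = 0.124), which leaves 2 controls. Aldoa (chr7:126795234-126800751, minus strand of GRCm38, protein coding) shares 13.5% of its 50-base stretches with genes of other symbols, so some of its reads could be placed elsewhere. The symbol Aldoa is carried by 2 gene IDs, and stretches shared between them were not counted.

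That was 1 of 32 tested genes, and 2.93% of all 22265 genes were called in this comparison. At an unadjusted p below 0.05 there were 9 of 32 (28.1%), against 13.6% of all genes. Of the 32, 18 had a positive and 14 a negative log2 fold change, with a median of 0.098 against -0.053 over all genes tested. The groups did not overlap for 2 genes in the higher and 1 in the lower direction, against 3.57% of all genes in the higher and 3.85% in the lower direction, 7.42% in either. In single directions 1.15% of all genes were called higher and 1.78% lower. For 20 of the 32 genes the whole 95% interval of the log2 fold change lay within 1 unit of 0, so a doubling or halving falls outside it.

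Among glycolytic enzymes the next smallest p-values belonged to Eno1, Hk2, Gpi1, Tpi1, Eno2, Ldha and Pfkm, and none of these passed the test. Eno1, the main enolase of proliferating cells, measured 1239.9, 1481, 873 and 989 CPM in KO primary 3, 4, 6 and 7, against 786, 670.5, 701, 803 and 549 CPM in control primary 3 to 7. The groups did not overlap, and KO primary 3 and 4 were the highest. The log2 fold change was 0.71 (SE 0.182, edgeR adjusted p = 0.0546). Hk2, the hexokinase that binds to mitochondria and is tied to growth of precursors, was at 435, 238, 318 and 152 CPM in KO primary tumours, against 130.4, 153, 145, 209.9 and 114 CPM in control primary tumours. KO primary 3, 4 and 6 lay above every control, and KO primary 7 lay among them, with a log2 fold change of 0.92 (SE 0.289, edgeR adjusted p = 0.123).

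Whether either gene passed the test depended on single libraries. Over 23 other settings the log2 fold change was 0.56 to 0.83 for Eno1 and 0.64 to 1.15 for Hk2. Without KO primary 7, which had 723 CPM on receptor genes, edgeR called Aldoa, Eno1, Hk2 and Ldha, and the same 4 genes were called without all 4 libraries above 100 receptor CPM (Hk2 log2 fold change 1.10, edgeR adjusted p = 0.0230). Without control primary 3, with 1752 receptor CPM, edgeR called Aldoa, Eno1 and Ldha. That fit called 1032 of all 19995 genes tested in it, and the fit without the 4 receptor libraries 1427 of 20214. With all libraries 653 of 22265 were called. Fits without 1 library, among them that without KO primary 7, called 277 to 1032 of all genes. Gpi1, which converts glucose 6-phosphate to fructose 6-phosphate, was at 187, 163, 163 and 150.0 CPM in KO primary tumours, against 135, 138, 131, 128 and 140.2 CPM in control primary tumours. Its groups did not overlap, at a log2 fold change of 0.30 and edgeR adjusted p = 0.154. Ldha, which makes lactate, averaged 571 ± 104 CPM in KO primary and 429 ± 72.7 CPM in control primary tumours, with overlapping groups (log2 fold change 0.41, edgeR adjusted p = 0.202).

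Lower values without a call came from Tpi1, Pfkm and Eno2. Tpi1, the triose isomerase, averaged 49.0 ± 16.0 CPM in KO primary and 79.7 ± 17.0 CPM in control primary tumours (log2 fold change -0.70, edgeR adjusted p = 0.179). Its groups overlapped through KO primary 3 at 70.1 CPM and control primary 5 at 55.7 CPM. Pfkm averaged 31.5 ± 6.33 CPM in KO primary and 45.5 ± 9.24 CPM in control primary tumours (log2 fold change -0.53, edgeR adjusted p = 0.228). Eno2, the enolase of mature neurons, was at 1.25, 1.22, 1.24 and 2.25 CPM in KO primary tumours, against 2.59, 7.64, 2.47, 1.87 and 19.9 CPM in control primary tumours. Control primary 7 was far above the other controls, and the log2 fold change of -2.21 had an interval of -3.91 to -0.50 (edgeR adjusted p = 0.189). Markers of differentiating neurons were lower in the same direction: 6 of 8 fell, with a median log2 fold change of -1.61, and Tubb3 averaged 195 ± 43.1 CPM in KO primary against 633 ± 167 CPM in control primary tumours. Their part in the Aldoa, Pfkm and Eno2 values was not tested, and in sorted bulk cells fewer cells of a type and less RNA per cell cannot be told apart. Age and the presence of Xist also differ between the groups, and their part was not tested.

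The remaining enzymes were not called. Gapdh averaged 999.96 ± 53.4 CPM in KO primary and 1066 ± 233 CPM in control primary tumours, and Pkm, the pyruvate kinase gene, 910.1 ± 113 CPM in KO primary and 798 ± 121 CPM in control primary tumours. Pgk1, which makes ATP in the payoff stage of the pathway, Pgam1, the phosphoglycerate mutase, and Ldhb, the lactate dehydrogenase that favours pyruvate, had log2 fold changes of 0.13, 0.10 and 0.092. Intervals of Gapdh, Pkm, Pgk1, Pgam1 and Ldhb all lay within 0.51 of 0. Reads of several of these enzymes are hard to place, since 82.5% of the 50-base stretches of Gapdh, 68.0% of Pgk1, 41.5% of Pgam1, 30.5% of Pkm and 27.0% of Ldhb also occur in other genes, mostly processed copies. Pfkl and Pfkp, the other phosphofructokinases, had log2 fold changes of 0.25 and 0.30, and Hk1 one of -0.38.

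**Figure D2:**
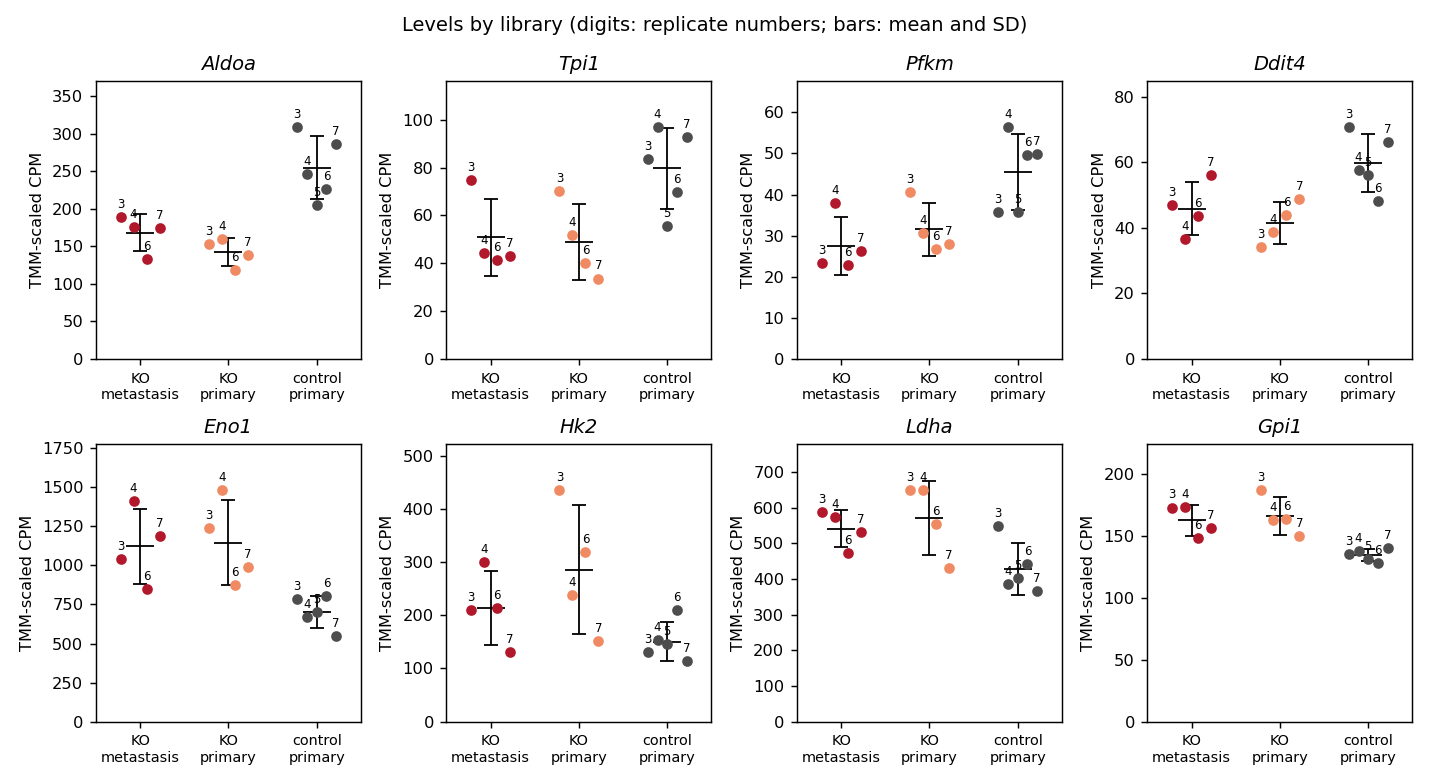
TMM-scaled CPM of 8 glycolysis and hypoxia genes in each library, labelled by replicate number, with the mean and SD of each group as bars and KO metastasis, KO primary and control primary from left to right. Aldoa is lower in all 8 KO libraries (119 to 189.5 CPM) than in the 5 controls (206 to 308 CPM), and Eno1 is higher in all 8 (846 to 1481 CPM against 549 to 803 CPM).

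Spinal metastases were compared with the same 5 controls, so values of both KO groups share them and are given side by side. No gene of the 33 passed the test in KO metastases against control primary tumours, where 3.08% of all genes did. With DESeq2 and with limma voom 7 genes each were called in this comparison, against 1671 and 3822 of all 22265 genes. At an unadjusted edgeR p below 0.05 there were 13 of 32 (40.6%), against 14.2% of all genes. Log2 fold changes were positive for 17 and negative for 15, with a median of 0.068 against -0.039 over all genes. The groups did not overlap for 4 genes in the higher direction (Gpi1, Pgk1, Eno1 and Slc2a1) and 2 in the lower (Aldoa and Bnip3), against 2.81% and 4.01% of all genes in those directions and 6.82% in either.

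Aldoa was at 189.5, 175, 134 and 175 CPM in KO metastases 3, 4, 6 and 7, below every control, with a log2 fold change of -0.60 (SE 0.152, edgeR adjusted p = 0.0506) against -0.84 in KO primary tumours. It passed under 5 of 23 other settings, among them the fit without control primary 5 (edgeR adjusted p = 0.0472). Eno1 was at 1039, 1414, 846 and 1188 CPM in KO metastases, above every control, with a log2 fold change of 0.68 (SE 0.182, edgeR adjusted p = 0.0643). Slc2a1 encodes GLUT1, the glucose carrier of most dividing cells and of the blood-brain barrier. It was at 34.7, 39.8, 32.8 and 32.4 CPM in KO metastases and 14.8, 21.4, 26.1, 25.4 and 25.97 CPM in control primary tumours. All metastases lay above all controls, of which control primary 3 was lowest (log2 fold change 0.62, SE 0.173, edgeR adjusted p = 0.0755). Pfkm was at 23.4, 37.9, 22.8 and 26.2 CPM in KO metastases and 35.8, 56.3, 35.8, 49.6 and 49.8 CPM in control primary tumours. KO metastasis 4 lay among the controls (log2 fold change -0.72, SE 0.204, edgeR adjusted p = 0.0792).

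Here too control primary 3 weighed on the calls: without it edgeR called Eno1, Eno2, Pfkm, Slc2a1 and Slc2a3. Of all 19995 genes tested in that fit 1199 were called, against 685 of 22265 with all libraries. Pfkm alone was called without KO metastasis 4, Eno1 alone without KO metastasis 6 and Aldoa alone without control primary 5. Fits without 1 library called 369 to 1199 of all genes in this comparison, with 369 of 24947 without KO metastasis 4. Without the 3 controls with Xist no member was called. Eno2 was at 0.108, 0.663, 1.93 and 1.32 CPM in KO metastases, with a log2 fold change of -2.77 (interval -4.53 to -1.01, edgeR adjusted p = 0.0952). Of the 8 markers of differentiating neurons, 5 fell in metastases, with a median of -1.17. The sum of dissociation genes given above was higher in every metastasis than in every control. Oligodendrocyte sums had a median of 494 CPM in metastases and 170 CPM in controls, with overlapping ranges. The part of any of these marker genes in these values was not tested. Endothelial markers, which would come with vessels rich in Slc2a1, were all detected. They summed to 1.87 to 10.9 CPM in KO metastases, 2.35 to 17.4 CPM in KO primary and 1.21 to 25.6 CPM in control primary libraries. The part of endothelial cells in the Slc2a1 values was not tested.

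**Figure D3:**
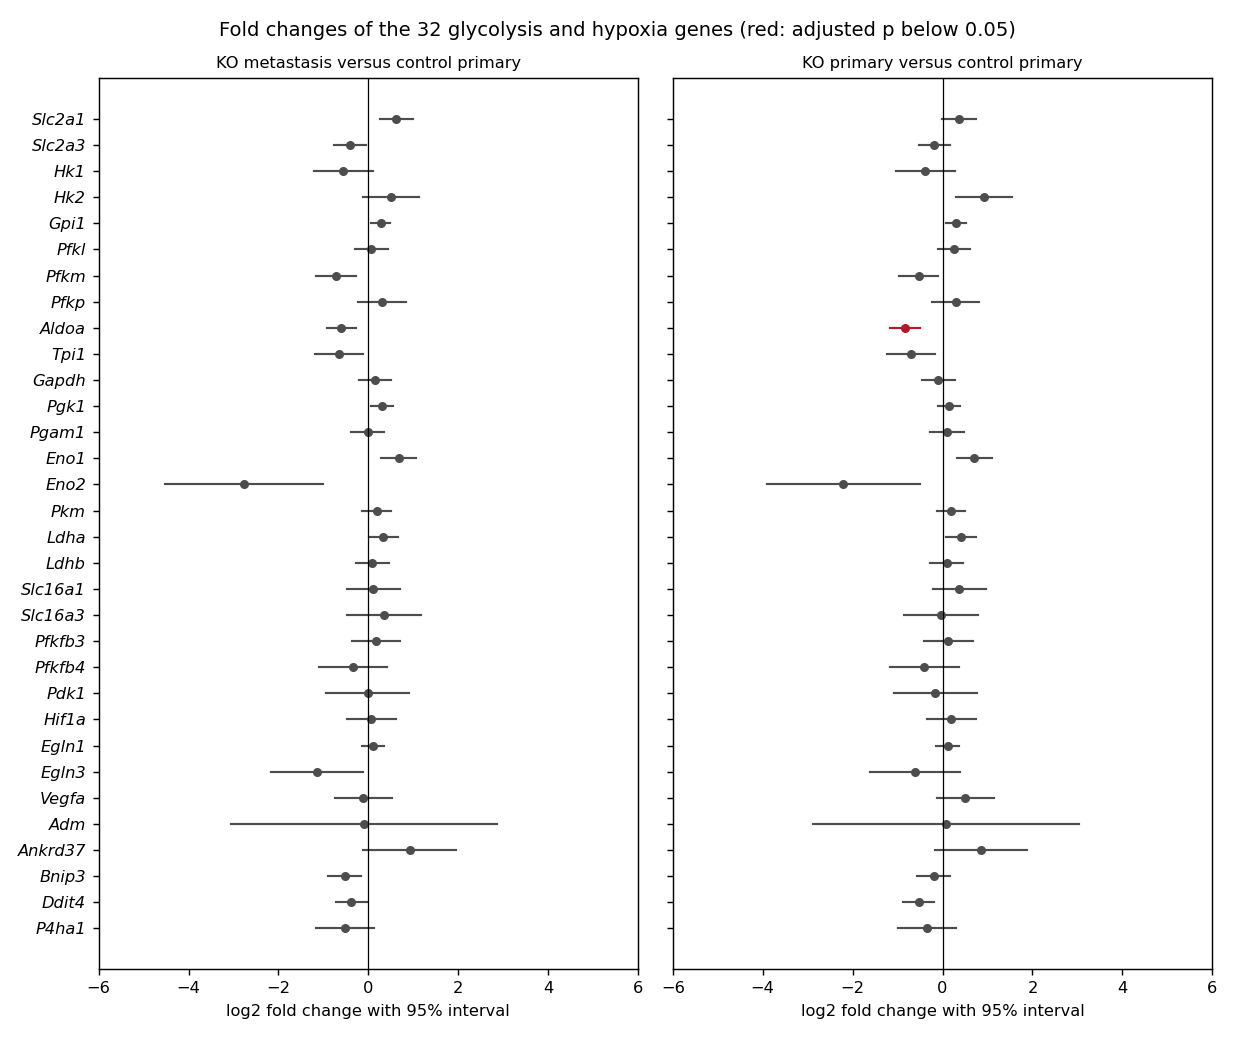
Log2 fold change with its 95% interval (edgeR, 13 libraries) of 32 genes in KO metastasis against control primary (left) and KO primary against control primary tumours (right). The red point is Aldoa in KO primary tumours (-0.84, adjusted p = 0.00848), and most other intervals cross or come close to 0, with the widest for Adm and Eno2.

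Metastases were then set against the KO primary tumours of the same genotype. No gene of the 33 was called, and the smallest edgeR adjusted p of any of them was 0.9997. Over all genes 1 was called (0.00449%). None of the 32 had an unadjusted p below 0.05, against 3.23% of all genes, and DESeq2 and limma voom called none of them either. The median log2 fold change was -0.029, against -0.0038 over all genes, and for 24 of 32 genes the whole interval lay within 1 unit of 0. Pgk1, which lies on the X chromosome, was the gene whose groups did not overlap, at 157, 136, 137 and 144 CPM in KO metastases and 129, 130.02, 135 and 118 CPM in KO primary tumours (log2 fold change 0.16, interval -0.10 to 0.42, edgeR adjusted p = 0.9997). Across all genes 1.72% did not overlap, 0.683% in the higher and 1.04% in the lower direction.

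The smallest p-values in this comparison belonged to Vegfa, Bnip3, Aldoa and Slc2a1. Vegfa, the main signal for vessel growth, was at 33.3, 25.8, 34.4 and 28.5 CPM in KO metastases and 67.5, 41.7, 47.8 and 30.4 CPM in KO primary tumours. The groups overlapped through KO primary 7, and KO primary 3 was highest (log2 fold change -0.62, SE 0.313, unadjusted p = 0.0688, edgeR adjusted p = 0.9997). Bnip3, which marks mitochondria for removal in low oxygen, was at 8.33, 9.60, 8.85 and 9.98 CPM in KO metastases and 14.1, 11.54, 11.4 and 9.24 CPM in KO primary tumours, with 48.9% of its 50-base stretches shared with other genes. The log2 fold change was -0.33 (SE 0.180, unadjusted p = 0.0864, edgeR adjusted p = 0.9997), and KO primary 7 lay among the metastases. Aldoa and Slc2a1 had log2 fold changes of 0.24 (interval -0.10 to 0.58) and 0.26 (interval -0.13 to 0.65).

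The balance of the glucose transporters Slc2a1 and Slc2a3 separated the groups, though no test of it passed after adjustment. Slc2a1 averaged 34.9 ± 3.42, 29.2 ± 3.87 and 22.7 ± 4.85 CPM in KO metastases, KO primary and control primary tumours, and Slc2a3, which encodes the neuronal carrier GLUT3, 41.7 ± 4.07, 48.6 ± 5.37 and 55.3 ± 11.8 CPM. The ratio of Slc2a1 to Slc2a3 was 0.885, 0.891, 0.879 and 0.7104 in KO metastases 3, 4, 6 and 7. It was 0.639, 0.569, 0.601 and 0.594 in KO primary 3, 4, 6 and 7, and 0.373, 0.359, 0.512, 0.466 and 0.362 in control primary 3 to 7. All 3 groups were separate from each other. The log2 ratio was higher by 1.01 in KO metastases and by 0.54 in KO primary tumours, both set against control primary tumours, and each gave the smallest two-sided p an exact permutation test allows here, 0.0159. Metastases were higher by 0.47 than KO primary tumours (exact permutation p = 0.0286, again the smallest possible). Over 27 such ratio tests the adjusted values were 0.0714, 0.0714 and 0.110, so none passed 0.05. Neither gene alone passed the edgeR test in any of the 3 comparisons.

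Slc2a4, which encodes the insulin-regulated carrier GLUT4 and is no member of the 33, gave the firmest transporter result. It belongs to a list of 25 other glycolysis genes and regulators. Slc2a4 was at 27.3, 28.6, 28.8 and 31.0 CPM in KO metastases 3, 4, 6 and 7, at 26.5, 27.4, 29.8 and 40.2 CPM in KO primary 3, 4, 6 and 7, against 68.6, 91.3, 86.4, 117 and 100.2 CPM in control primary 3 to 7. Both KO groups lay wholly below the controls. The log2 fold change was -1.68 in KO metastases (SE 0.172, edgeR adjusted p = 3.08e-04) and -1.58 in KO primary tumours (SE 0.171, edgeR adjusted p = 3.1e-04). Both calls held under all 23 other settings, with log2 fold changes between -1.81 and -1.40 in KO metastases and between -1.81 and -1.34 in KO primary tumours. Slc2a4 (chr11:69942539-69948188, minus strand of GRCm38) is known for muscle and fat. Differentiating granule neuron markers were lower in the same comparisons, with medians of -1.17 in KO metastases and -1.61 in KO primary tumours and 5 and 6 of 8 called lower, and their part in the Slc2a4 values was not tested. The 5 skeletal muscle markers summed to 1.96 to 5.93 CPM in KO metastases, 1.77 to 7.96 CPM in KO primary and 2.47 to 13.3 CPM in control primary libraries. The part of muscle cells in the Slc2a4 values was not tested either.

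**Figure D4:**
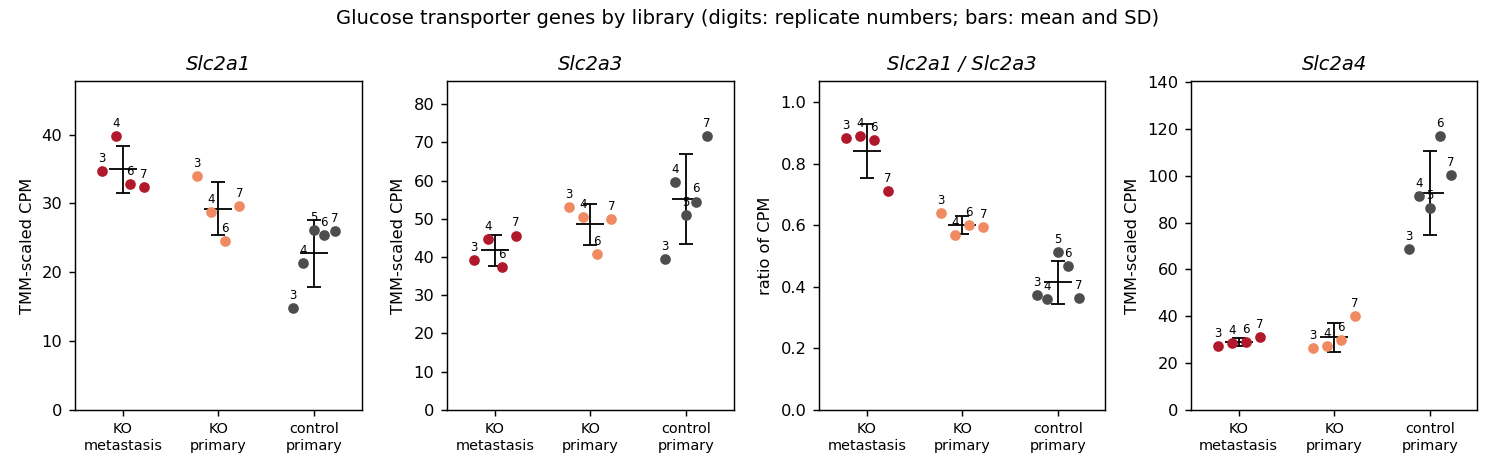
TMM-scaled CPM of the glucose transporter genes Slc2a1, Slc2a3 and Slc2a4 and the ratio of Slc2a1 to Slc2a3 in each library, labelled by replicate number, with group means and SD as bars. The ratio separates KO metastases (0.7104 to 0.891), KO primary (0.569 to 0.639) and control primary tumours (0.359 to 0.512), and Slc2a4 is lower in the 8 KO libraries (26.5 to 40.2 CPM) than in the controls (68.6 to 117 CPM).

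Lactate carriers showed no call. Slc16a1, which encodes MCT1, averaged 68.2 ± 18.5, 81.7 ± 16.6 and 63.1 ± 20.3 CPM in KO metastases, KO primary and control primary tumours. The lowest libraries were control primary 3 at 28.1 CPM and KO metastasis 3 at 43.0 CPM. Slc16a3, the HIF-induced exporter MCT4, averaged 2.93 ± 1.61, 2.25 ± 0.666 and 2.30 ± 0.703 CPM, with KO metastasis 3 highest at 5.31 CPM.

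The balance between isoenzymes was read as log2 ratios of gene pairs, in which library scaling nearly cancels. Of 9 pairs in 3 comparisons, none passed 0.05 after adjustment over the 27 tests. Ratios at the smallest possible exact permutation p, 0.0159, also failed, so the threshold was hardly within reach. Pfkl over Pfkm stood at a ratio of 1.86, 1.64, 1.87 and 2.02 in KO metastases 3, 4, 6 and 7 and 1.74, 2.02, 1.79 and 1.72 in KO primary 3, 4, 6 and 7. In control primary 3 to 7 it was 1.27, 0.961, 1.60, 0.854 and 0.817. Both KO groups lay above every control, with control primary 5 the closest (log2 difference 0.78 in KO metastases and 0.76 in KO primary tumours, exact permutation p = 0.0159, adjusted p = 0.0714 each). Eno1 over Eno2 also did not overlap with the controls, at log2 differences of 2.61 in KO metastases and 2.09 in KO primary tumours with the same p-values. The gap was narrow, with ratios of 438 in KO metastasis 6 and 440 in KO primary 7 against 430 in control primary 6. Control primary 7 was far lower at 27.6, and Eno2 drew only 3 reads in KO metastasis 3. Hk1 over Hk2 differed by -0.91 in KO metastases and -1.10 in KO primary tumours on the log2 scale, with overlapping groups (exact permutation p = 0.0635 and 0.0476, adjusted p = 0.143 and 0.129). Ldha over Ldhb, at log2 differences of 0.25 and 0.33, overlapped too. So did Pfkp over Pfkm, Slc16a1 over Slc16a3, Pfkfb3 over Pfkfb4 and Egln1 over Egln3 in all 3 comparisons.

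Eno1 has a near-identical copy, Eno1b, in the table. The copy shares 70.5% of the 50-base stretches of Eno1, so the counts of both depend on how such reads were placed. The share of their summed level given to Eno1b was 8.75%, 0.376%, 15.2% and 0.678% in KO metastases 3, 4, 6 and 7, and 8.04%, 0.499%, 16.9% and 0.556% in KO primary 3, 4, 6 and 7. In control primary 3 to 7 it lay between 7.001% and 8.33%. Libraries with the same replicate number in both KO groups were close to each other: replicates 4 and 7 were under 1%, replicate 6 was over 15% and replicate 3 was near the controls. Counting both together, a setting added after the data were seen, Eno1 had a log2 fold change of 0.65 in KO metastases (edgeR adjusted p = 0.0365) and 0.69 in KO primary tumours (edgeR adjusted p = 0.0286) against control primary tumours. The summed level therefore passed the test where Eno1 alone, at adjusted p = 0.0643 and 0.0546, did not.

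**Figure D5:**
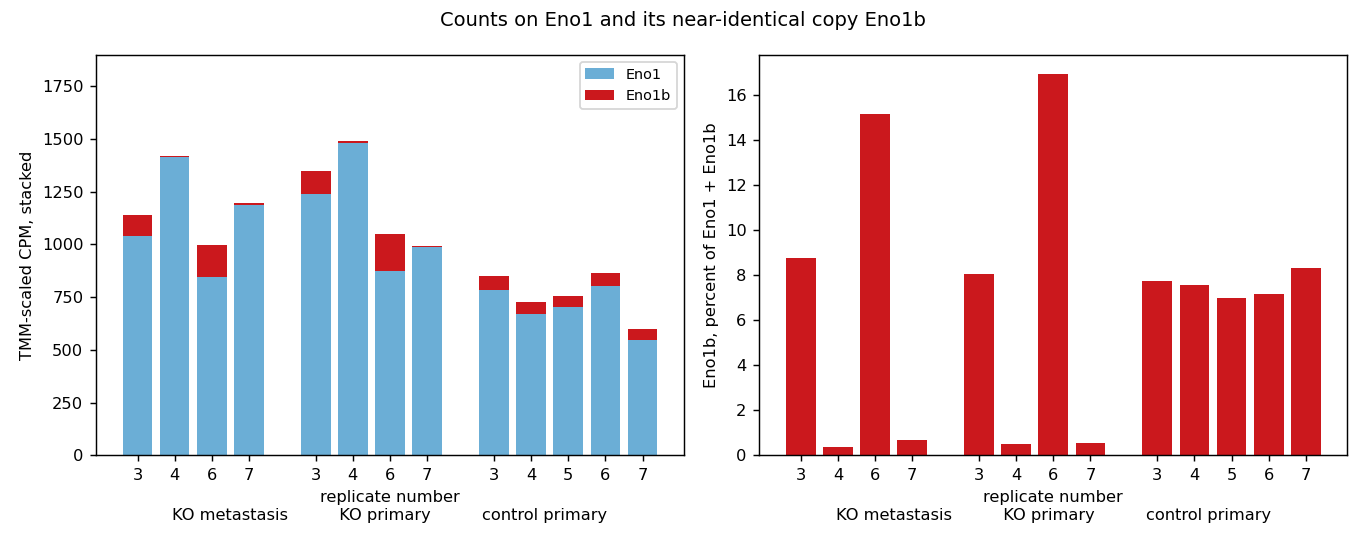
Stacked TMM-scaled CPM of Eno1 and its near-identical copy Eno1b in each library (left) and the share of their sum given to Eno1b in percent (right). The sum is higher in all 8 KO libraries (994 to 1488 CPM) than in the 5 controls (598 to 865 CPM), while the Eno1b share ranges from 0.376% to 16.9% in KO libraries and stays between 7.001% and 8.33% in controls.

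The regulators of glycolysis gave no call. Pfkfb3 and Pfkfb4 make a fructose bisphosphate that activates phosphofructokinase and is not the one that Aldoa cleaves. Pfkfb3 averaged 13.7 ± 3.88, 13.3 ± 2.68 and 12.1 ± 3.40 CPM in KO metastases, KO primary and control primary tumours, and Pfkfb4 11.04 ± 4.41, 10.6 ± 1.77 and 14.0 ± 5.75 CPM. Pdk1, which blocks pyruvate entry into mitochondria, stood at 3.01 ± 1.38, 2.72 ± 0.738 and 3.04 ± 1.46 CPM. Its intervals reached from -0.94 to 0.91 in KO metastases and from -1.08 to 0.76 in KO primary tumours against control primary tumours, so changes of close to 2-fold lie inside them.

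Hif1a itself was not called in any comparison. It was at 79.1, 181, 127 and 142 CPM in KO metastases, 156, 142, 144 and 135 CPM in KO primary tumours, against 65.9, 165, 108, 143 and 149 CPM in control primary tumours, with control primary 3 and KO metastasis 3 lowest. Log2 fold changes against control primary tumours were 0.067 in KO metastases (interval -0.48 to 0.61) and 0.19 in KO primary tumours (interval -0.35 to 0.74). The hydroxylase gene Egln1 averaged 136 ± 13.9, 137 ± 8.69 and 127 ± 14.1 CPM, with log2 fold changes of 0.10 and 0.11 against controls. Egln3, the hydroxylase that HIF itself induces, was at 0.611, 1.25, 3.09 and 2.10 CPM in KO metastases, 1.88, 2.18, 2.62 and 3.49 CPM in KO primary tumours, against 7.53, 3.496, 2.32, 3.57 and 2.64 CPM in control primary tumours. Control primary 3 was the highest library, and neither difference from the controls was called (log2 fold change -1.15 in KO metastases, edgeR adjusted p = 0.274, and -0.62 in KO primary tumours, edgeR adjusted p = 0.697). RNA levels do not read the HIF-1α protein, which is set mainly by its decay.

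Among the hypoxia response genes other than those of glucose use, Ddit4, an inhibitor of mTORC1, had the smallest edgeR p in KO primary tumours. Its level was 34.2, 38.9, 44.0 and 48.9 CPM in KO primary 3, 4, 6 and 7 and 70.7, 57.8, 56.3, 48.2 and 66.3 CPM in control primary 3 to 7. The groups overlapped between KO primary 7 and control primary 6 (log2 fold change -0.53, SE 0.161, edgeR adjusted p = 0.112). Its level in KO metastases was 45.9 ± 8.08 CPM, a log2 fold change of -0.38 against controls (edgeR adjusted p = 0.281). All metastases had less Bnip3, at values given earlier, than control primary 3 to 7 (14.8, 14.1, 10.8, 11.8 and 14.5 CPM) (log2 fold change -0.52, edgeR adjusted p = 0.141). Vegfa overlapped between KO and control tumours, with 30.5 ± 4.07, 46.8 ± 15.6 and 32.99 ± 15.4 CPM in KO metastases, KO primary and control primary tumours. P4ha1, a subunit of the collagen hydroxylase, averaged 44.4 ± 13.3, 50.1 ± 8.63 and 63.8 ± 31.7 CPM, with control primary 5 at 118 CPM.

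Ankrd37, Adm and Car9 are often used as readouts of hypoxia and were scarce. Ankrd37 was at 2.01, 0.769, 1.44 and 2.47 CPM in KO metastases, 2.24, 1.31, 1.06 and 1.79 CPM in KO primary tumours, against 1.33, 1.18, 0.722, 0.805 and 0.377 CPM in control primary tumours. Its log2 fold changes of 0.92 and 0.85 were not called (edgeR adjusted p = 0.432 and 0.49996), and 22.7% of its exons lie opposite exons of Lrp2bp. Adm drew 53, 65 and 56 reads in all in the KO metastasis, KO primary and control primary groups. Of the 56, most came from control primary 3, at 1.83 CPM, and 2 controls had none. Its intervals against controls ran from -3.05 to 2.87 in KO metastases and from -2.87 to 3.03 in KO primary tumours, and edgeR called no difference. Limma voom called Adm higher in KO primary tumours (log2 fold change 2.72, adjusted p = 0.0404). Without control primary 3 edgeR gave log2 fold changes of 2.58 in KO metastases and 2.75 in KO primary tumours, neither called (adjusted p = 0.165 and 0.168).

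The other genes of these pathways were counted from lists chosen with earlier results of these data known. Of 24 tested genes among other glycolysis paralogs and regulators, 1 fell (Slc2a4) and 1 rose (Pgm1) in KO primary tumours, 1 fell (Slc2a4) in KO metastases against controls, and none was called between metastases and KO primary tumours. The median log2 fold change was -0.21 in KO primary tumours and -0.088 in KO metastases, against -0.053 and -0.039 over all genes. Pgm1, which links glycogen to glucose 6-phosphate, was at 45.8, 54.3, 44.3 and 37.9 CPM in KO primary tumours, against 29.3, 27.8, 25.6, 30.6 and 32.6 CPM in control primary tumours, with no overlap (log2 fold change 0.64, SE 0.149, edgeR adjusted p = 0.0331). It passed in 11 of 23 other settings, not without the low-count filter (edgeR adjusted p = 0.0717) or without the controls with Xist (0.363), and in 4 of the 13 fits that each leave out 1 library. The call was lost without control primary 4, 5, 6 or 7, KO primary 3, 4 or 6, or KO metastasis 6 or 7 (adjusted p up to 0.167).

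In the serine branch, which draws on 3-phosphoglycerate, 1 of 6 tested genes rose in KO primary tumours and none was called in the other comparisons, with all 6 positive against controls in both. Phgdh, its first enzyme, was at 439, 302, 302 and 285 CPM in KO metastases, 452, 357, 373 and 258 CPM in KO primary tumours, against 243, 174, 203, 226 and 181 CPM in control primary tumours. Both KO groups lay above every control. The log2 fold change was 0.81 in KO primary tumours (SE 0.177, edgeR adjusted p = 0.0233) and 0.69 in KO metastases (SE 0.177, edgeR adjusted p = 0.0516). The call in KO primary tumours was lost without KO primary 3, 4 or 6 and without control primary 4, 5, 6 or 7 (adjusted p up to 0.123), and without the controls with Xist (edgeR adjusted p = 0.365).

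HIF pathway regulators had no call in KO primary tumours (16 tested) and 1 in KO metastases against controls, the co-activator competitor Cited2. It was at 385, 277, 151 and 154 CPM in KO metastases and 125, 119.6, 125.995, 111 and 131 CPM in control primary tumours, with KO metastases 3 and 4 the highest (log2 fold change 0.98, SE 0.242, edgeR adjusted p = 0.0428). Of 29 other HIF targets, 1 was called, Ndrg1, at 4.88, 8.89, 22.9 and 6.79 CPM in KO metastases and 1.64, 2.34, 3.12, 1.64 and 4.95 CPM in control primary tumours. KO metastasis 6 was highest, and KO metastasis 3 lay just below control primary 7 (log2 fold change 1.98, SE 0.458, edgeR adjusted p = 0.0308). Ndrg1 is also known from myelinating cells. Of 6 oligodendrocyte markers, 5 had a positive and 1 a negative log2 fold change in this comparison, and 1 was called higher. Among these markers, Mbp was at 245 ± 117 CPM in KO metastases and 97.6 ± 29.1 CPM in control primary tumours. The part of these markers was not tested. Cited2 was no longer called without KO metastasis 3 (log2 fold change 0.66, edgeR adjusted p = 0.177) or 4, KO primary 3, 4 or 6, or control primary 4, 5, 6 or 7. Ndrg1 was no longer called without KO metastasis 6 (log2 fold change 1.34, edgeR adjusted p = 0.128) or 4, KO primary 4, or control primary 4, 5 or 6. With only the compared groups fitted edgeR gave adjusted p = 0.0750 for Cited2 and 0.0538 for Ndrg1, and without the controls with Xist 0.476 for Cited2 and 0.181 for Ndrg1. Without the 4 receptor libraries Ndrg1 was not called either (edgeR adjusted p = 0.118). Median log2 fold changes of HIF regulators and other HIF targets were 0.085 and -0.073 in KO metastases and 0.089 and -0.014 in KO primary tumours against controls. Genes of pyruvate entry (13 tested), the pentose phosphate pathway (9 tested) and gluconeogenesis (4 tested) gave no call in any comparison by edgeR.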

How the data were processed

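The authors' deposited table held raw read counts per gene symbol, 1 column for each of the 13 libraries. The submitters' processing notes name the tools STAR 2.4, HTSeq 0.6.1 and DESeq2 and the mouse build mm10 (GRCm38), with no role for any. The notes do not state the annotation release, the strand setting or what was done with reads that match several genes. Genes and their antisense partners therefore cannot be told apart. Cells, per the labels' protocols, were dissociated with papain, sorted for GFP and made into libraries with a TruSeq RNA kit.

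From the counts, 1 model over all 13 libraries was fitted in edgeR 4.0.16 (R 4.3.3) after a filterByExpr filter at a minimum count of 10 and a minimum total of 15, with TMM scaling. The 3 groups were compared with quasi-likelihood F tests, and Benjamini-Hochberg adjustment ran over all 22265 genes kept. A gene was called at an adjusted p below 0.05. The standard error is the log2 coefficient divided by the square root of F, and 95% intervals follow from it. Gene pairs were compared as log2 ratios of CPM + 0.5 by exact two-sided permutation tests, adjusted over 27 tests. No 2 libraries held identical counts. Levels per kb use the union of exons in GENCODE M21 on GRCm38, which also gave coordinates. Copies were found as shared stretches of 50 bases between transcripts of genes with different symbols. Symbols were matched to GENCODE M21 by name, and 2 gene IDs carry the symbol Aldoa there. Alternatives were DESeq2 1.42.0, limma 3.58.1 voom with quality weights, other scaling and filters, a replicate block, fits without single libraries or sets of libraries, and Eno1 summed with Eno1b. The fit was tested on simulated data with 200 changed genes. Their changes were set larger than that of Aldoa, so this does not measure the power for smaller changes. The 33 genes, the other lists and the tests were chosen with earlier results of these data known. Full values are given for each gene of the 33 that was called and otherwise for the 4 with the smallest p in a comparison, and the rest are given by group, with every called gene of the other pathway lists.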

Additional observations from a re-analysis of the deposited data

Results flagged for a closer look

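In 8 of 99 combinations of gene and group, 1 library lay far from the others of its group by Dixon's test, and about 1 in 20 is marked by chance alone. KO metastasis 3, with 2.06% of counts on mitochondrially encoded genes, accounted for 3 of them. Tpi1 was at 75.0 CPM there, against 41.3 to 44.3 CPM in the other metastases. Pfkfb3 was at 19.46 CPM there, against 11.1 to 12.2 CPM, and Pfkfb4 at 4.45 CPM, against 12.6 to 13.6 CPM. Eno2 was at 2.25 CPM in KO primary 7, against 1.22 to 1.25 CPM in the other KO primary libraries. Control primary 3, with the most counts on receptor genes, accounted for another 3. Egln3 was at 7.53 CPM there, against 2.32 to 3.57 CPM in the other controls, Car9 at 0.761 CPM, against at most 0.0966 CPM, and Adm at 1.83 CPM, against at most 0.148 CPM. P4ha1 was at 118 CPM in control primary 5, against 34.4 to 57.8 CPM in the other controls. The part of mitochondrial or receptor counts in these values was not tested.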

How the results depend on the processing

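For KO primary against control primary tumours edgeR called 653 genes and 1 of the 33. DESeq2 called 1648 and 6, limma voom 3267 and 9, the fit without the 4 libraries over 100 receptor CPM 1427 and 4, the receptor level as a covariate 1090 and 3, and the fit without the controls with Xist 138 and 0. For KO metastases against control primary tumours, 685 genes and 0 of the 33 became 1671 and 7 with DESeq2, 3822 and 7 with limma voom, 1274 and 3 without the receptor libraries, 1099 and 4 with the covariate, and 100 and 0 without the controls with Xist. For KO metastases against KO primary tumours the count of 1 gene became 33 with DESeq2, 2 with limma voom or no filter, 5 without the receptor libraries, and 0 with the covariate, without the controls with Xist or with only the 2 groups fitted. No gene of the 33 was called there under any setting run. With Eno1 and Eno1b summed, 2 of the 33 were called in KO primary tumours and 1 in KO metastases against controls. Leaving out 1 library at a time gave 277 to 1032 genes and 1 to 4 of the 33 in KO primary tumours, 369 to 1199 genes and 0 to 5 of the 33 in KO metastases against controls, and 0 to 2 genes between the KO groups. The lowest counts came without KO primary 4 and KO metastasis 4, and 1032 and 1199 genes came without control primary 3. The cause of these shifts was not tested. No gene called by edgeR turned round in its called comparison, while Adm in KO primary against control primary tumours, called by limma voom alone, had the other sign in 8 settings (log2 fold change -0.996 to 2.78). No pair ratio passed the adjusted threshold under any setting run. In the main run even ratios at the smallest possible exact permutation p, 0.0159, had an adjusted p of 0.0714. With so few libraries the threshold was hardly within reach, so this says little about the ratios.

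The labels give the groups shared replicate numbers but do not say that these mark shared mice. Eno1b shares were close between KO metastases and KO primary tumours of the same number. They were 8.75% and 8.04% for number 3 and 0.376% and 0.499% for number 4. For number 6 they were 15.2% and 16.9%, and for number 7 0.678% and 0.556%. If the numbers mark shared mice, the KO libraries are paired, and the main fit leaves this pairing out. Deviations of libraries with the same number correlated at 0.184, 0.388, 0.0095 and 0.559 between KO metastases and KO primary tumours, and at -0.428, 0.184, 0.0692 and -0.24 between KO primary and control primary tumours. Between KO metastases and control primary tumours they were -0.177, 0.331, -0.311 and -0.0962, and not every library correlated best with its own number. With a replicate block edgeR called 672 genes and 2 of the 33 (Aldoa and Tpi1) in KO primary tumours, 639 genes and 1 of the 33 (Aldoa) in KO metastases against controls, and 0 genes between the KO groups. The block also ended the calls of Pgm1 in KO primary tumours (adjusted p = 0.0986) and of Cited2 (0.0772) and Ndrg1 (0.113) in KO metastases against controls. A replicate block over the KO libraries alone, added after the data were seen, called 10 genes and none of the 33.

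At 23.5 to 41.4 M counts per library, Car9 did not pass the low-count filter, and Adm drew 53 to 65 reads per group. Sets of 4 and 5 libraries cannot give a permutation p below 0.0159, and sets of 4 and 4 none below 0.0286. Fold changes of genes with near-identical copies depend on how reads were placed.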
